A study of Capra hircus with 12 samples.

Results

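The genes described here are 6 matrix metalloproteinases (MMPs), MMP2, MMP7, MMP9, MMP11, MMP14 and MMP28, and 3 tissue inhibitors of metalloproteinases (TIMPs), TIMP1, TIMP2 and TIMP3, in secondary hair follicles of the cashmere goat (Capra hircus). The set was chosen by gene name, on measured values over the 6 months and 3 growth stages, and all 9 were found among the 20326 genes of the tables. Their values by stage and month are therefore given as a description. Where the text says that a difference of these genes was past a threshold, or that a left-out library changed this, it describes the values that chose them and is no independent test. Secondary hair follicles are the small skin appendages that grow the cashmere undercoat once a year.

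RNA was sequenced from 12 libraries of goats aged 1.5 years, with 1 female and 1 male in each month. The 4 anagen libraries, from the growth phase, came from May and from September. The 4 catagen libraries, from regression, came from November and from December, and the 4 telogen libraries, from rest, came from February and from March. The labels give no genotype or treatment and do not say whether a goat was sampled more than once. The p-values below therefore measure the spread between these samples. Each stage was sampled in 2 months of its own, so stage cannot be told apart from the time of year. The stage fit held no term for month and took the 4 libraries of a stage as separate samples. Every level below is the deposited value under the heading TPM, which is scaled per transcript length and can be compared between genes. The 3 stages were compared with limma on log2(value + 1) over 16095 genes, and all 9 described genes passed the filter on low values. The constant 1 shrinks the differences of genes with low values.

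MMPs are zinc-dependent enzymes that cut collagens, laminins and other proteins outside the cell. Most are made as inactive proenzymes and are opened by other proteases, and TIMPs bind the active site and block it. In a hair follicle, the matrix around the epithelium and the dermal papilla is rebuilt with each cycle of growth, regression and rest, and fibroblasts, epithelial cells and leukocytes can each make some of these enzymes.

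The telogen libraries lay apart from the rest. On the first principal component of the tested genes, with 52.1% of the variance, telogen libraries scored 23.0 to 56.4 and the other 8 scored -35.7 to -6.82. The March male was the telogen library nearest to the others, at 23.0 against 52.4 to 56.4. Transcripts of the mitochondrial genome made up 4.63% of its sum, 9.88% to 11.8% of the other telogen libraries and 1.53% to 3.51% of the anagen and catagen libraries. Of 7 measured keratinocyte markers, none was at 0, and their summed level was 22500 to 29700 in anagen, 18000 to 27800 in catagen and 8310 to 16000 in telogen. The summed level of 9 myeloid markers, genes of macrophages and related cells, was 49.8 to 81.4, 41.6 to 51.7 and 56.6 to 97.6 in the same order. The summed level of 8 sebaceous markers was 986 to 1520, 1090 to 1380 and 1440 to 2470. Markers of skeletal muscle summed to 218 and 221 in the May libraries and to at most 8.03 in the others. The keratins KRT5, KRT14, KRT25 and KRT27 made nearly all of the keratinocyte sum. SOX9 and LHX2, of the same list, went the other way, with anagen minus telogen at -0.57 and -0.51 on the log2 scale. In whole follicles, fewer cells of a type and less RNA per cell cannot be told apart. The part of these shifts in the results below was not tested.

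The 9 genes spanned a wide range of levels. TIMP3, the TIMP that stays bound to the matrix, was the highest, with a mean of 270 over the 12 libraries, and ranked 443 among all 20326 genes. TIMP1 ranked 686, MMP14 ranked 1352, TIMP2 ranked 1502 and MMP2 ranked 2495. MMP7, MMP11, MMP28 and MMP9 were far lower, at ranks 9261, 11875, 12712 and 13136. The coefficient of variation over the 12 libraries was 90.3% for MMP7 and 79.2% for MMP9, against a median of 23.3% over the tested genes. It was 29.9% for MMP11 and 18.1% for TIMP1, and 11.7% to 12.3% for MMP2, MMP14, MMP28, TIMP2 and TIMP3. Of the 5 most abundant genes only TIMP1 varied more than 12.3%, while MMP7 and MMP9, both of low level, varied most.

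**Figure D1:**
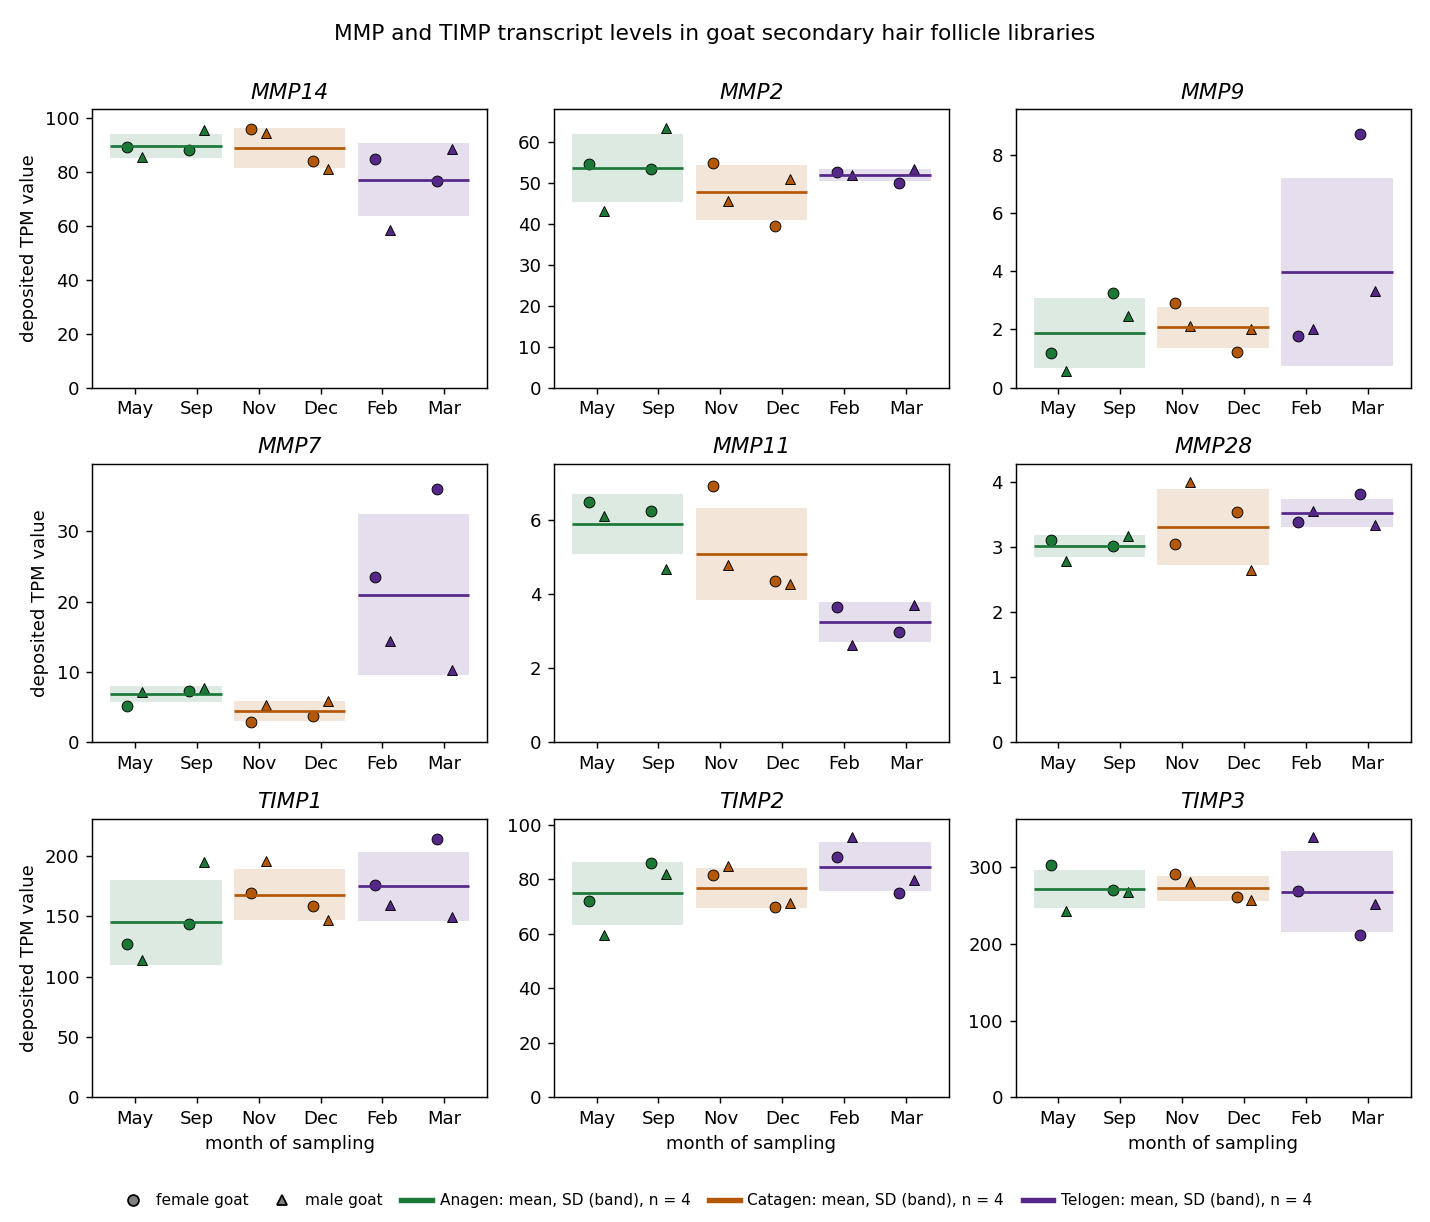
Deposited TPM value (vertical axes, starting at 0) of each of the 9 genes in each library, by month of sampling. Circles are female and triangles male goats, lines are stage means and bands are 1 SD (n = 4). MMP7 is highest in the 4 telogen libraries and MMP11 lowest in them, while MMP2, TIMP2 and TIMP3 overlap between all stages.

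MMP7 was, of the 9, the gene with the largest difference between stages. MMP7 (gene ID 102173210), also called matrilysin, is a small MMP made mainly by epithelial cells. Its level in anagen was 5.16 in the May female, 7.14 in the May male, 7.36 in the September female and 7.68 in the September male. In catagen it was 2.87 in the November female, 5.31 in the November male, 3.78 in the December female and 5.89 in the December male. In telogen it was 23.5 in the February female, 14.4 in the February male, 36.0 in the March female and 10.3 in the March male. All 4 telogen libraries lay above all 8 others, and anagen and catagen overlapped.

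The stage means of MMP7 were 6.83 ± 1.14 in anagen, 4.46 ± 1.39 in catagen and 21.0 ± 11.4 in telogen (SD, n = 4). On the log2 scale telogen was 1.90 above catagen (SE 0.304) and 1.36 above anagen, the anagen minus telogen difference being -1.36 (SE 0.304), and catagen minus anagen was -0.54 (SE 0.304). The highest library was 12.5 times the lowest. Without the March female the telogen minus catagen difference was 1.60, and without the March male it was 2.18. By month the order of the means was March (23.1), February (18.9), September (7.52), May (6.15), December (4.83) and November (4.09). February lay clear of September and September clear of May, while the values overlapped between March and February, between May and December and between December and November.

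MMP7 varied within telogen more than within any other stage. Among the telogen libraries, some summed markers moved with it or against it. The March female had the lowest keratinocyte sum (8310) and the highest myeloid (97.6) and sebaceous (2470) sums of the 12 libraries. The March male, lowest in MMP7 among the telogen libraries, had sums of 16000, 56.6 and 1440. The September male, an anagen library with MMP7 at 7.68, had higher myeloid (81.4) and sebaceous (1520) sums than the March male. The endothelial sum was 198, 117, 232 and 126 in telogen (February and then March, female first). The dermal fibroblast sum was 872, 1240, 854 and 1710 in the same order. Among the myeloid markers CD68, AIF1, LAPTM5 and TYROBP rose in telogen against catagen (4 of 9 tested), while C1QA and C1QC had differences of -0.25 and -0.30 that did not pass. Among the sebaceous markers PPARG and MGST1 rose (2 of 8), and FASN and ELOVL3 had differences of -0.16 and -0.19 that did not pass. Of all tested genes 24.5% rose, so the sebaceous count was near the background. Of the keratinocyte markers KRT5, KRT25, KRT27 and KRT35 fell and LHX2 rose (7 tested). Over all tested genes 19.0% fell. The part of these cells in the level of MMP7 was not tested.

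MMP11 went the other way. MMP11 (gene ID 102181066), or stromelysin-3, is known from stromal cells and is activated inside the cell by furin. Its level was 6.49, 6.10, 6.23 and 4.69 in the May female, May male, September female and September male. It was 6.93 and 4.78 in the November female and male, and 4.36 and 4.27 in the December female and male. In telogen it was 3.65 and 2.62 in the February female and male and 2.99 and 3.72 in the March female and male. The 4 telogen values lay below all 8 others, and anagen and catagen overlapped.

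The stage means of MMP11 were 5.88 ± 0.808, 5.08 ± 1.25 and 3.25 ± 0.531 in anagen, catagen and telogen (SD, n = 4). The log2 difference was -0.51 (SE 0.15) for telogen minus catagen, 0.70 (SE 0.15) for anagen minus telogen and -0.19 (SE 0.15) for catagen minus anagen. The telogen minus catagen difference was -0.37 without the November female, which had the highest value of the 12, and -0.43 with all libraries rescaled to 1 sum, and in both cases it was no longer past the threshold. December (4.31) lay between the other anagen and catagen months (5.46 to 6.29) and the telogen months (3.13 and 3.36), with no overlap on either side.

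MMP28 was the other gene whose groups came apart. MMP28 (gene ID 102184088), or epilysin, is an MMP of keratinocytes. It was 2.78 to 3.17 in the 4 anagen libraries and 3.34 to 3.81 in the 4 telogen libraries, which did not overlap. The catagen values, 3.04 and 4.0 in November and 3.54 and 2.65 in December, spanned both. The anagen minus telogen difference was small, -0.17 (SE 0.112), with means of 3.02 ± 0.171 and 3.52 ± 0.214 (SD, n = 4). In the RefSeq annotation of the ARS1.2 goat assembly the MMP28 gene overlaps C19H17orf50, whose level here was higher, 6.76 to 15.9. This overlap is of whole gene spans, and shared exons and strand were not examined. Whether the counting used strand is not given in the sources used here. It is therefore not known whether these genes share reads.

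Only MMP7 and MMP11 of the 9 genes were past the adjusted p threshold of 0.05 between telogen and the other stages, as a description of genes chosen on these values. For telogen against catagen 1 of 9 was higher, beside 24.5% of all tested genes, and 1 of 9 lower, beside 19.0%. The groups did not overlap in 2 of 9, beside 35.8%. For anagen against telogen 1 of 9 was higher, beside 23.7% of tested genes, and 1 of 9 lower, beside 29.2%. The groups did not overlap in 3 of 9, with MMP28 the added gene, beside 43.2%. For catagen against anagen none of the 9 was past the threshold in limma, beside 0.0559% of tested genes. None had an unadjusted p under 0.05 in limma, beside 2519 of 16095 tested genes. None had groups that did not overlap, beside 7.03%. Nothing is read from these counts, since the rule used the same values. The median log2 difference of the 9 genes was 0.08, -0.17 and 0.01 in the 3 comparisons, beside 0.07, -0.07 and -0.02 over all tested genes. The first and second comparison share the telogen libraries, so the values of MMP7 and MMP11 in them are not independent.

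**Figure D2:**
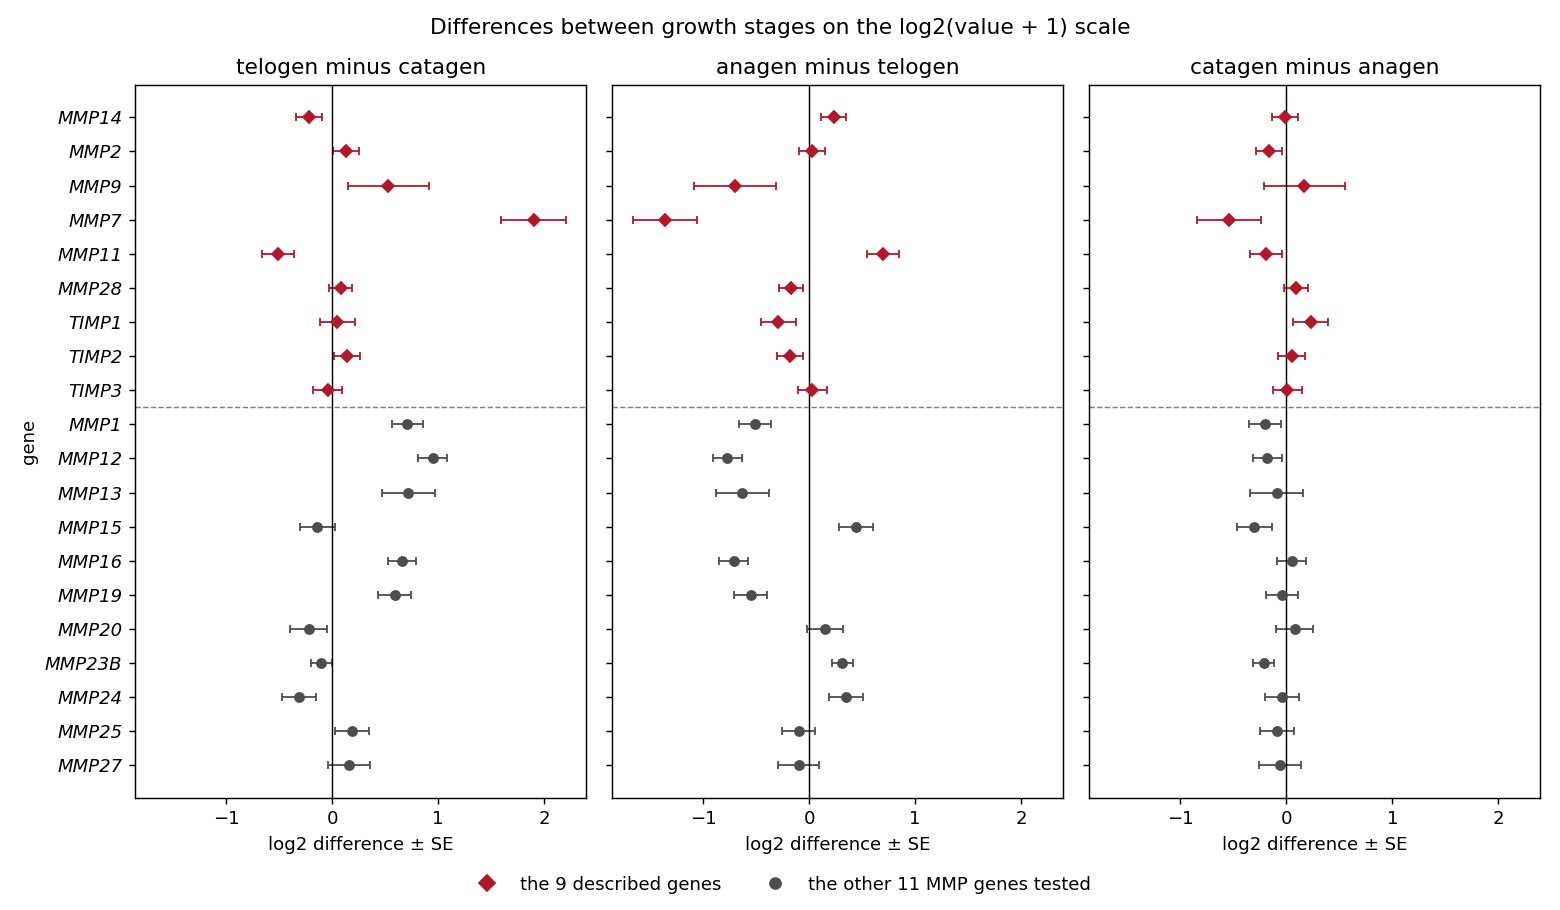
Log2 differences between stages with SE, from limma on log2(value + 1), for the 9 described genes (diamonds) and the other 11 MMP genes tested (circles), 4 libraries a stage, all panels on 1 scale. MMP7 lies at 1.90 in telogen minus catagen and at -1.36 in anagen minus telogen, and MMP1, MMP12, MMP13, MMP16 and MMP19 lie on the same side as MMP7 in both panels.

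The gelatinases cut denatured collagen and the type IV collagen of basement membranes. MMP2 (gene ID 102184364), typically made by fibroblasts, differed little between stages. Its level was 54.7, 43.3, 53.5 and 63.7 in the anagen libraries (May female, May male, September female, September male), 55.0, 45.8, 39.6 and 51.0 in catagen (November and then December, female first) and 52.8, 52.2, 50.1 and 53.4 in telogen (February and then March, female first). All 3 stages overlapped, with means of 53.8 ± 8.35, 47.8 ± 6.67 and 52.1 ± 1.46 (SD, n = 4). The log2 difference was 0.13 (SE 0.122) for telogen minus catagen.

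MMP9 (gene ID 102168469), the gelatinase that leukocytes store and epithelial cells can induce, had low levels with a single high library. It was 1.2, 0.57, 3.25 and 2.47 in anagen, 2.92, 2.13, 1.21 and 2.03 in catagen and 1.79, 2.03, 8.71 and 3.33 in telogen, in the same order of libraries. The March female, at 8.71, was the highest, and the stages overlapped. The March mean of 6.02 did not overlap with September (2.86), the month after it in order, while May was lowest (0.885). The telogen minus catagen difference was 0.53 (SE 0.383) over all libraries, 0.14 without the March female and -0.05 without both March libraries, so it rested on March. The summed neutrophil markers, at 53.3 in the March female, were higher in the September male (122), where MMP9 was 2.47. In the September male S100A8 was 45.7 and S100A9 47.4, which made most of this sum. LTF was 14.6 there, ELANE 2.14, CSF3R 1.10 and MPO 0.33, and the last 2 genes were under the filter on low values. CXCR2, of the same list, was 13.8 in the March female and 10.7 in the September male. The myeloid sum was highest in the March female (97.6). The part of these cells in the level of MMP9 was not tested.

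MMP14 is a membrane-anchored MMP that cuts fibrillar collagen and, with TIMP2 as a bridge, activates proMMP2. MMP14 (gene ID 100861171) was 85.3 to 95.6 in the anagen libraries and 81.1 to 95.8 in the catagen libraries. In telogen it was 84.7 and 58.4 in the February female and male and 76.7 and 88.6 in the March female and male. The stages overlapped, and the February male was the lowest of the 12. The means were 89.5 ± 4.37, 88.9 ± 7.39 and 77.1 ± 13.4 (SD, n = 4), and the telogen minus catagen difference was -0.22 (SE 0.122), or -0.09 (SE 0.0954) without the February male.

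Of the inhibitors, TIMP1 is a soluble inhibitor that blocks MMP14 poorly. TIMP1 (gene ID 100860924) was 127, 114, 144 and 195 in anagen, 169, 196, 158 and 147 in catagen and 176, 159, 214 and 150 in telogen, with May first and the female before the male. Both May libraries lay below the other 10. The stage means were 145 ± 35.5, 168 ± 21.0 and 175 ± 28.5 (SD, n = 4). The anagen minus telogen difference was -0.29 (SE 0.166), and it was -0.05 without both May libraries and -0.44, past the threshold, without the September male.

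TIMP2 takes part in the activation of proMMP2 as well as in inhibition. TIMP2 (gene ID 102178107) was 59.7 to 85.9 in anagen, 69.8 to 84.8 in catagen and 75.1 to 95.4 in telogen. The February pair (88.1 and 95.4) lay above all other libraries, and the stages overlapped. The stage means were 74.8 ± 11.7, 76.9 ± 7.41 and 84.6 ± 9.0 (SD, n = 4). The telogen minus catagen difference was 0.14 (SE 0.124).

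TIMP3 inhibits MMPs and several ADAM proteases. TIMP3 (gene ID 102190027) had nearly equal stage means, 271 ± 24.5, 272 ± 16.1 and 268 ± 53.1 (SD, n = 4). Its lowest and highest libraries were both in telogen, the March female at 211 and the February male at 339. The log2 differences between stages were -0.04, 0.03 and 0.01 (SE 0.136 each) for telogen minus catagen, anagen minus telogen and catagen minus anagen. On ARS1.2 each TIMP gene overlaps other annotated genes, and these had low levels here: SYN1 1.79 to 6.48 and CT55 0.16 to 1.21 at TIMP1, CEP295NL 1.66 to 3.05 at TIMP2 and SYN3 5.75 to 11.6 at TIMP3.

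The stage means of the MMP sum and of the TIMP sum were close, while MMP7 made a larger share of the MMP sum in telogen. The sums hold the 9 described genes only. MMP1, an MMP outside them, had means of 24.8, 21.5 and 36.5 in anagen, catagen and telogen. The 6 MMPs summed to 161 ± 13.1 in anagen, 152 ± 12.9 in catagen and 161 ± 19.6 in telogen, and the 3 TIMPs to 490 ± 53.7, 517 ± 41.4 and 527 ± 49.0 (SD, n = 4). The TIMP sum was 2.81 to 4.45 times the MMP sum in the 12 libraries, with means of 3.04 ± 0.122, 3.41 ± 0.200 and 3.34 ± 0.754. The highest ratio was in the February male, the library with the lowest MMP14 and the highest TIMP3. MMP14 and MMP2 together made 89.0 ± 1.10% of the MMP sum in anagen, 90.2 ± 0.463% in catagen and 80.6 ± 6.85% in telogen. The share of MMP7 was 4.26 ± 0.730%, 2.97 ± 0.975% and 12.8 ± 5.82%. Within telogen it ran from 6.31% in the March male to 20.2% in the March female. The lowest share of the 12 libraries was 1.72%, in the November female. The ratio of MMP14 to TIMP2 was 1.22 ± 0.169, 1.16 ± 0.0399 and 0.927 ± 0.219 in the same order. Telogen overlapped with anagen and lay below catagen in all 4 libraries by a narrow margin, the March male and the November male both rounding to 1.11. TIMP1 reached the level of TIMP3 in a single library, the March female (ratio 1.01), and was 0.422 to 0.729 of it in the others.

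**Figure D3:**
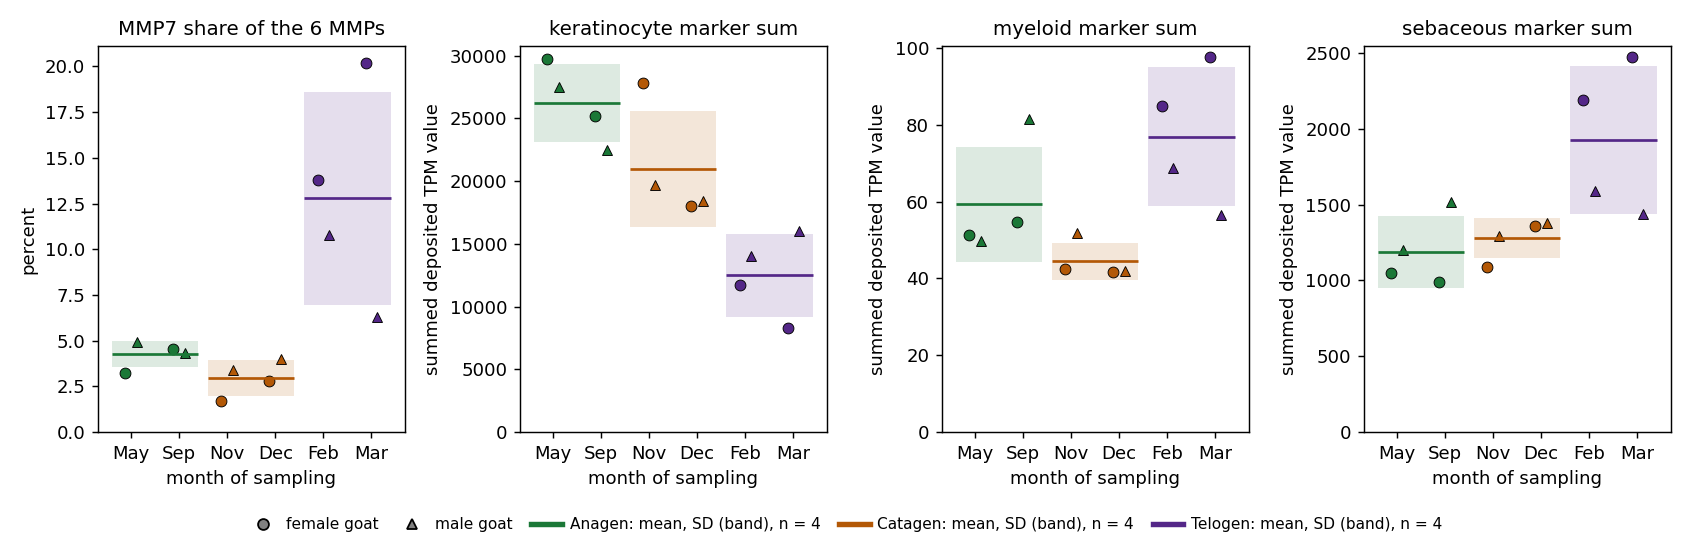
MMP7 as a percent of the summed level of the 6 MMPs, and the summed levels of keratinocyte, myeloid and sebaceous markers, by month (circles female, triangles male, lines stage means, bands 1 SD, n = 4). The March female is highest for MMP7 (20.2%), myeloid (97.6) and sebaceous (2470) markers and lowest for keratinocyte markers (8310).

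Over the 12 libraries, which share stages and scaling, MMP7 and MMP11 ran opposite to each other (Pearson r -0.74, Spearman rho -0.77 of log2 values, n = 12, a description). MMP11 and MMP14 ran together (r 0.71, rho 0.76), as did MMP28 and TIMP1 (r 0.69, rho 0.73). MMP9 and TIMP1 had r 0.68 but rho 0.49. The inhibitors TIMP1 and TIMP3 did not run together (r -0.18, rho 0.00), and of MMP2 with its activator MMP14 r was 0.14 and rho 0.59. The genes most like MMP7 over the same libraries were FECH (r 0.966), LCP1 (0.964) and PTPRJ (0.957). For MMP11 they were BORCS6 (0.990), BCL2L13 (0.985) and ZNF219 (0.984). The closest gene was SHKBP1 for MMP14 (0.945), RRAS for TIMP1 (0.936), CNST for TIMP3 (0.900), SLIT2 for MMP9 (0.895), PTGIS for TIMP2 (0.880), CIITA for MMP2 (0.865) and PLCXD3 for MMP28 (0.856).

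**Figure D4:**
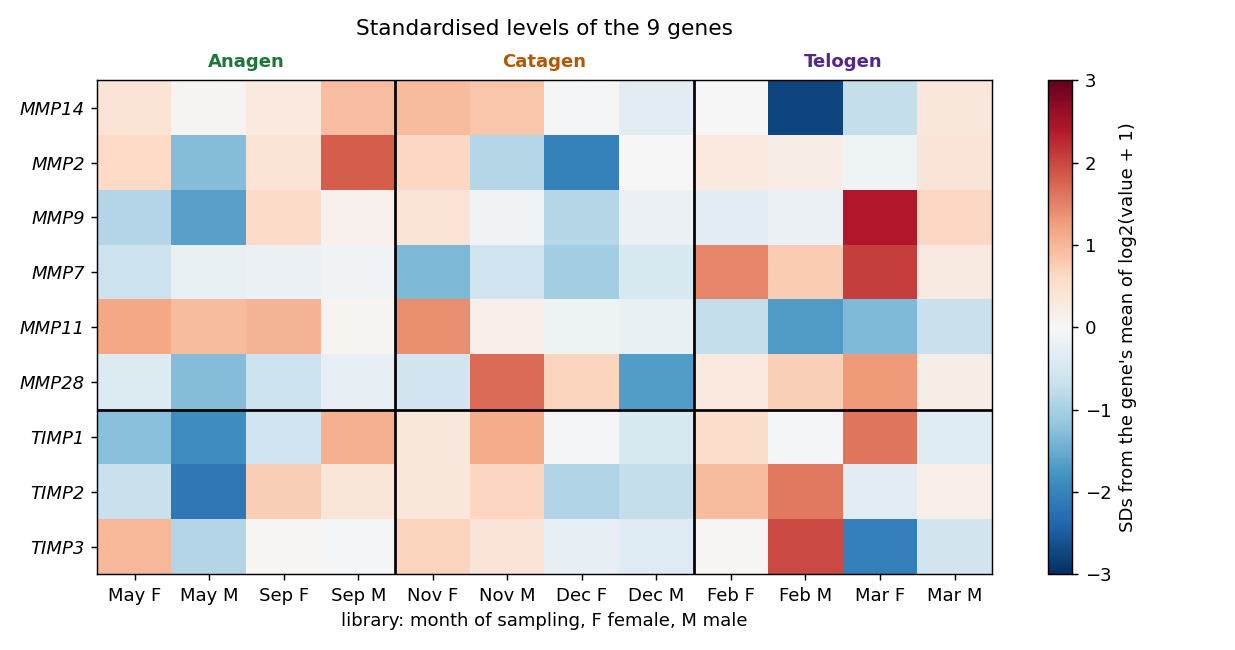
Log2(value + 1) of each gene in each library, as SDs from the gene's own mean over the 12 libraries (colour, red high and blue low), libraries in columns by stage. MMP7 is red in all 4 telogen columns where MMP11 is blue, and the March female column holds the highest MMP7, MMP9 and TIMP1 and the lowest TIMP3.

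The other MMPs were taken from a list of 18 genes, of which 14 were measured and 11 tested. For telogen against catagen 5 of 11 rose and none fell, and for anagen against telogen 2 of 11 were higher in anagen and 5 lower. Over all tested genes 24.5% rose and 19.0% fell in the first comparison, and 23.7% were higher and 29.2% lower in the second. None passed for catagen against anagen, beside 0.0559% of all tested genes. None had an unadjusted p under 0.05 there in limma, beside 2519 of 16095. The median log2 difference of the list was 0.19, -0.10 and -0.09, beside 0.07, -0.07 and -0.02 over all tested genes. The rule did not name these genes, and their adjusted p is from limma over all 16095 genes. The lists were chosen with earlier results of these data known, so these values too are a description and no independent test.

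MMP1, the interstitial collagenase, was the most abundant of those that rose. It was 20.3 to 23.5 in the 4 catagen libraries, 22.1 to 28.3 in anagen and 33.0, 44.0, 25.6 and 43.3 in telogen (February and then March, female first). Telogen lay above catagen in all 4 libraries, at 36.5 ± 8.81 against 21.5 ± 1.44 (SD, n = 4), a log2 difference of 0.71 (SE 0.149, adjusted p = 0.00298). MMP12, the macrophage elastase, was 3.41 to 4.67 in telogen, above all other libraries (1.11 to 2.26), with a log2 difference of 0.95 over catagen (SE 0.136, adjusted p = 5.06e-04). MMP16, a membrane-anchored MMP, was 5.97 ± 0.641 in telogen against 3.42 ± 0.432 in catagen (log2 0.66, adjusted p = 0.00271). MMP19 rose by 0.59 (adjusted p = 0.00919), a call lost under quantile normalization and without both March libraries. MMP13, or collagenase-3, rose by 0.72 (adjusted p = 0.0331), and its call was lost in 9 of 21 alternatives. MMP15 and MMP23B were higher in anagen than in telogen, by 0.44 (adjusted p = 0.0377) and 0.31 (adjusted p = 0.0180), and their calls were lost in 8 and 5 of 21 alternatives.

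MMP7 has MMP neighbours. On ARS1.2, whose coordinates are not used because the build behind the files is not given, 8 protein-coding genes stand side by side in the order MMP7, MMP20, MMP27, MMP8, MMP1, MMP3, MMP12 and MMP13. Of the 7 neighbours, MMP1, MMP12 and MMP13 rose in telogen against catagen. MMP20, the enamel protease, differed by -0.22 (SE 0.173, adjusted p = 0.315) and MMP27 by 0.16 (SE 0.195, adjusted p = 0.523). MMP8 and MMP3 were under the filter on low values, with telogen means of 0.333 and 0.435 against catagen means of 0.130 and 0.0925. MMP1 and MMP7 differed in order within telogen: MMP1 was higher in each male than in the female of its month, and MMP7 higher in each female.

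**Figure D5:**
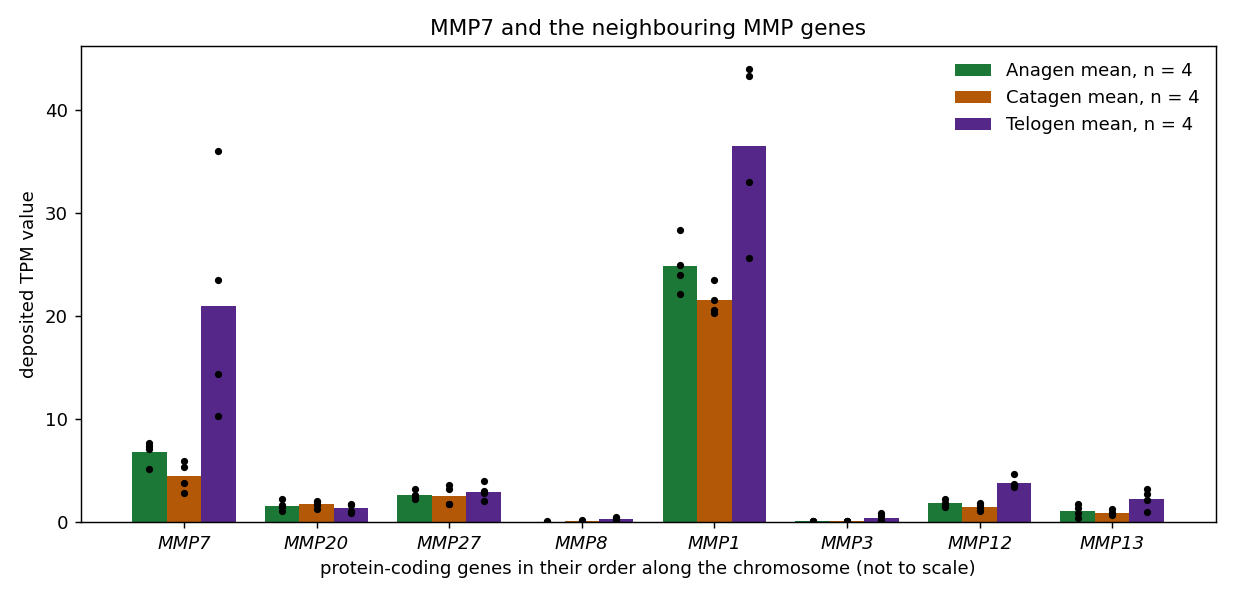
Mean deposited TPM value per stage (bars from 0, n = 4) and each library (points) of MMP7 and its 7 neighbours, in chromosomal order, not to scale. MMP7 (21.0) and MMP1 (36.5) have the highest telogen means, and MMP20 and MMP27 have similar bars in the 3 stages.

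Of the 5 other metalloproteinase inhibitors tested, 1 rose in telogen against catagen and none fell, beside 24.5% and 19.0% of all tested genes. For anagen against telogen none was higher in anagen and 1 was lower, beside 23.7% and 29.2%. The share that rose was near that of all tested genes, so this count is no result about the list. The list's medians were 0.06 and -0.41, beside 0.07 and -0.07 over all genes. SPOCK1 was 1.34 ± 0.243 in telogen and 0.802 ± 0.119 in catagen (SD, n = 4), a difference of 0.38 (SE 0.124, adjusted p = 0.0265) that was lost in 5 of 21 alternatives, and anagen minus telogen was -0.47 (adjusted p = 0.00656, lost under quantile normalization). TIMP4, the fourth TIMP, was 6.51 ± 1.35 in telogen and 5.81 ± 2.28 in catagen (log2 0.18, adjusted p = 0.523). RECK, a membrane-bound inhibitor, differed by 0.06 (adjusted p = 0.630). TFPI2, a matrix inhibitor of serine proteases, was 71.2 ± 20.6 and 76.0 ± 7.47 (log2 -0.13, adjusted p = 0.681).

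The proteases that activate MMPs, with cell-surface partners, had 13 tested genes. For telogen against catagen 2 rose and 3 fell, and for anagen against telogen 5 were higher in anagen and 1 lower. The 2 and 3 of 13 stand beside 24.5% and 19.0% of all tested genes, and the 5 and 1 beside 23.7% and 29.2%. The list's medians were 0.08 and 0.23, beside 0.07 and -0.07 over all genes. The convertases FURIN and PCSK6 cut the propeptides of several MMPs, and PCSK7 is a related enzyme. FURIN was 40.9 ± 7.09 in telogen, 54.4 ± 8.19 in catagen and 60.3 ± 7.60 in anagen (SD, n = 4), with telogen minus catagen at -0.41 (adjusted p = 0.0380, lost in 7 of 21 alternatives) and anagen minus telogen at 0.56 (adjusted p = 0.00672, lost without both May libraries). PCSK6 fell by 0.46 on the log2 scale in telogen (adjusted p = 0.0105, lost with libraries rescaled to equal sums) and PCSK7 by 0.35 (adjusted p = 0.0462, lost in 14 of 21). PCSK5 rose by 0.28 (adjusted p = 0.0312, lost in 5 of 21). CD44, a hyaluronan receptor that can dock MMPs at the cell surface, was 204, 148, 254 and 139 in telogen (February and then March, female first) and 97.4 to 133 in the other libraries. CD44 rose by 0.80 over catagen (adjusted p = 0.00253), and telogen lay above both other stages in all 4 libraries. PLAU, the urokinase that generates plasmin, was higher in anagen than in telogen by 0.66 (adjusted p = 0.0202), as was BSG, an inducer of MMPs, by 0.36 (adjusted p = 0.0246, lost in 5 of 21 alternatives). PLAU was 25.7 to 30.3 in anagen, and in telogen it was 11.5 and 12.2 in the February and March females and 24.0 and 25.8 in the males. Its call was lost without the February female, without the March female and without both May libraries.

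The ADAM list had 13 tested genes of a family in which some, not all, members are membrane proteases that shed surface proteins. ADAM28, ADAMDEC1 and ADAM23 rose in telogen against catagen, by 1.00 (adjusted p = 4.83e-04), 0.67 (adjusted p = 0.00977) and 0.64 (adjusted p = 0.00705), and none fell. Under quantile normalization the calls of ADAMDEC1 and ADAM23 were lost. For anagen against telogen 2 were higher in anagen and 4 lower. ADAM33 was among the former, at 45.3 in anagen against 28.5 in telogen (log2 0.63, adjusted p = 0.00512, lost without both May libraries). The ADAMTS and ADAMTSL genes encode secreted relatives, some of which cut proteoglycans or procollagens. Of 22 tested, 5 rose and 1 fell in telogen against catagen, while 4 were higher in anagen than in telogen and 3 lower. The shares that rose, 3 of 13 and 5 of 22, were near the 24.5% of all tested genes, so these counts are no result about either list. Over all tested genes 19.0% fell there, and 23.7% were higher in anagen than in telogen and 29.2% lower. ADAMTS9 was 23.1 in telogen against 10.2 in catagen (log2 1.04, adjusted p = 0.0111), and ADAMTS10 was 4.42 against 7.08 (log2 -0.58, adjusted p = 0.00698). The medians of telogen minus catagen were 0.03 for the ADAM list and 0.18 for the ADAMTS list.

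Basement membrane genes encode substrates of these enzymes. Of 19 tested, 2 rose and 8 fell in telogen against catagen, and 9 were higher in anagen than in telogen and 2 lower. Over all tested genes the shares were 24.5% and 19.0%, and 23.7% and 29.2%. The medians were -0.31 and 0.27, beside 0.07 and -0.07 over all genes. COL4A1, a chain of type IV collagen, was 62.2 to 85.4 in anagen, 47.4 to 68.1 in catagen and 23.9 to 39.8 in telogen, and telogen lay below all 8 others. It fell by 0.96 on the log2 scale from catagen (adjusted p = 0.00113). COL4A2 fell by 0.79 (adjusted p = 0.00224), LAMB3, a chain of laminin-332, by 0.75 (adjusted p = 0.00607) and COL4A5 by 0.52 (adjusted p = 0.0125, lost with libraries rescaled to equal sums). LAMA3, another chain of laminin-332, rose by 0.46 (adjusted p = 0.00939). LAMA1 rose by 0.31 (adjusted p = 0.0489) at a telogen mean of 1.04, a call lost in 19 of 21 alternatives and turned to -0.03 under quantile normalization. None of the genes in any of these lists passed for catagen against anagen.

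Sex was not part of the rule. Males were set against females in a fit that held a term for each month. None of the 9 genes passed in limma, beside 0.0559% of all tested genes. None had an unadjusted p under 0.05 in limma, beside 1185 of 16095. Male minus female differences were -0.28 (SE 0.189, adjusted p = 0.725) for MMP9, -0.17 (SE 0.108, adjusted p = 0.716) for MMP11, -0.12 (SE 0.293, adjusted p = 0.933) for MMP7 and between -0.06 and 0.03 for the other 6. None of the genes in the pathway lists passed. For 9 ratios and sums within the family, an exact permutation test of sex within month, two-sided, gave p from 0.375 to 1.0 over 6 months, where the smallest p it allows is 0.0312, and all adjusted p were 1.0. The TIMP to MMP ratio was higher in the male in 3 of 6 months (p = 0.656, exact permutation).

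The sexes differed in MMP7 by stage in direction. The female was higher in both telogen months and the male in the other 4. An interaction of sex and stage, added after these values were seen and with 2 libraries for each sex and stage, gave -1.81 (SE 0.333) for the male minus female difference in telogen less that in catagen. Since these values prompted the fit, it restates them and supports nothing. Over all genes 3 of 16095 passed, MMP7 not among them (adjusted p = 0.193). For anagen less telogen it was 1.42 (SE 0.333, adjusted p = 0.282). The females were also the telogen libraries with the higher myeloid sums (84.8 and 97.6 against 68.6 and 56.6 in the males) and sebaceous sums (2190 and 2470 against 1590 and 1440).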

How the data were processed

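The authors deposited 1 table per library with a value per gene under the heading TPM. The library sums of this deposited signal run from 904623 to 1127797, and 5 of 12 exceed the sum that TPM would give, so the values had been rescaled across libraries by a step that is not given in the sources used here. The submitters' processing notes name kallisto 0.46.1 and sleuth 0.30.0. Per the labels' protocols, total RNA was taken with RNAiso Plus and made into Illumina libraries. The genome build is not given in the sources used here, and read depth is unknown.

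Genes that reached 1 in 2 or more libraries (16095 of 20326) were fitted on log2(value + 1) with limma 3.58.1 in R 4.3.3, with a mean-variance trend and all 12 libraries, 4 a stage. Benjamini-Hochberg adjustment ran over all tested genes, with a threshold of 0.05. Sex was fitted with month as a block. The fitting was tested on simulated data. Symbols were matched by gene number to RefSeq (20294 matched, 32 did not). No pair of libraries had equal values in more than 1.55% of tested genes.

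The 9 genes and the pathway and marker lists were chosen with earlier results of these data known. Named are all 9 genes, the 3 genes most like each of them by Pearson r (the closest one only for 7 of them), and up to 4 examples of each list past the threshold, by mean level. Beyond that rule, chosen after their values were seen, are MMP3, MMP8, MMP13, MMP20, MMP27, PCSK5, LAMA1 and LAMB3. So are the inhibitors that did not pass and the markers named singly. Listed markers KRT17, KRT71, KRT85, DCD, CD163, MYH1 and MYH2 were not analysed here. Alternatives were another added constant, no filter, quantile normalization, rescaling to 1 sum, the replicate block, averaged months and each library left out. The interaction of sex and stage, and the alternatives for the pathway lists, were added after the data were seen.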

Additional observations from a re-analysis of the deposited data

Results flagged for a closer look

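Of 54 groups of 4 libraries searched, 9 genes and 9 ratios or sums in each stage, 1 held a library far from the rest. TIMP3 made 50.0% of the summed level of the 3 TIMPs in the November male and 53.4% to 54.0% in the other catagen libraries. The gap was 0.85 of the range of the group. Chance flags about 1 in 20 such groups.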

How the results depend on the processing

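The 36 results on single genes of the family (9 genes in 4 comparisons) had 675 alternatives, and 652 kept direction where called and stayed on their side of the threshold. These genes were chosen on the same values, so this is a description and no support. MMP7 was past it in all 21 alternatives of both telogen comparisons (log2 1.37 to 2.18 over catagen, and -1.63 to -1.04 for anagen minus telogen), and MMP11 in all 21 for anagen minus telogen (0.40 to 0.84). For telogen against catagen the count of the 9 genes fell from 2 to 1, MMP11 being lost, with libraries rescaled to equal sums, and was 1 to 2 with a library left out, 1 being without the November female. The cause was not tested. MMP9 passed for anagen against telogen with months averaged (-0.70). For TIMP3, without both March libraries, telogen minus catagen was 0.15 and anagen minus telogen -0.16.

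Over all tested genes, telogen against catagen gave 3948 higher and 3063 lower, 4369 and 2052 when rescaled to equal sums, and 3145 and 3183 after quantile normalization. Rescaling moved the median of all genes by 0.083. Anagen against telogen gave 3811 and 4701, and 3778 and 6102 with no filter. Catagen against anagen gave 9 genes, 29 with months averaged, 4 without both March libraries, 4 without both May libraries and 3 to 13 with a library left out.

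Male minus female turned in sign, always far from the threshold: MMP2 without both September (-0.0321), December (-0.0544) or March (-0.0013) libraries, MMP7 without March (0.20), MMP14 without February (0.0385), MMP28 without December (0.0299), TIMP1 without March (0.0473), TIMP2 when rescaled (0.0016) and without May (0.0431) or September (0.0038), and TIMP3 under quantile normalization (-0.0061) and without February (-0.0314) or March (-0.0156). LAMA1, telogen minus catagen, was -0.0294 under quantile normalization.

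The replicate number marks sex. Deviations of same-numbered libraries correlated at -0.255 to 0.442 between months (median 0.114), above 0.1 in 9 of 15 pairs, which falls short of every pair, so they were not treated as pairs; whether any goats recur is not known. With the replicate block telogen against catagen gave 3999 and 3075 genes, anagen against telogen 3846 and 4778, and 2, 2 and 0 of the 9 genes passed, as without it. Read depth is unknown, so the precision of the low values of MMP9, MMP28 and MMP11 could not be set.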
